A study of Mus musculus with 4 samples.

Results

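The phagocyte NADPH oxidase genes were followed in lymph node B cells of mice that over-express miR-146a. The family comprised 5 listed genes, Cybb, Cyba, Ncf1, Ncf4 and Rac2, and 4 of them were measured by 7 of the 45037 probe sets tested. Members were chosen by gene symbol from the platform annotation, and the family was proposed with earlier results of these arrays known. Each gene was represented by the probe set selected on its mean log2 signal, the highest over the 4 arrays, among 17097 genes represented in that way. Ncf1 carried no match in that annotation and was not analysed here.

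The groups were 2 wild type mice and 2 mice labelled miR-146a transgenic, with 1 array per mouse. All 4 were labelled as males of the Balb/C background aged 6-8 wk. B cells were isolated from lymph nodes by magnetic removal of the other cells, dead cells were depleted, and total RNA was hybridised to Affymetrix arrays. The labels do not name the promoter that drives the transgene, and miR-146a itself was not analysed here. The mature miR-146a-5p of RefSeq (GRCm38.p6, chr11:43374435-43374456, minus strand) is shown because it is what the transgene over-expresses, with its seed, bases 2 to 8, in capitals.
mmu-miR-146a-5p: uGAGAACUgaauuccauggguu

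The phagocyte NADPH oxidase moves electrons from NADPH across a membrane onto oxygen and so makes superoxide, which neutrophils and macrophages use against ingested microbes. Its membrane core is a pair of proteins, the catalytic chain encoded by Cybb and the stabilising chain encoded by Cyba. On stimulation cytosolic subunits, among them those encoded by Ncf1 and Ncf4, and a Rac GTPase join that core. Loss of the core or cytosolic subunits causes chronic granulomatous disease. B cells also express the oxidase, where its signalling role is less well understood.

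The signals ranged from 2.02 to 13.03 on the log2 scale, and non-specific control probe sets averaged 2.83 to 2.95. The array of transgenic mouse 1 stood apart with an upper quartile of 6.13, against 6.51 to 6.55 on the other 3. The members and some of the lists are therefore also given without it. The medians of the resting B cell, T cell, neutrophil, monocyte, eosinophil, and erythroid and platelet lists are given only with it and may depend on it. The same holds for the list of the other NADPH oxidase family. B cell genes were bright in all arrays, but T cell genes were bright as well. The list of 12 measured T cell genes had median log2 signals of 10.13 and 10.15 in the wild type arrays and 10.36 and 10.38 in the transgenic arrays. The labelled sex was checked after the values were seen. Xist, the RNA that coats an inactive X chromosome, was at 5.96 and 6.19 in the wild type arrays and at 9.13 and 9.56 in the transgenic arrays (log2 change 3.27, SE 0.18, limma adjusted p = 0.0446). The wild type Xist values also lay above the control probe sets. The Y-linked genes Eif2s3y and Kdm5d were measured in all 4 arrays, at 7.80 to 8.34 and at 7.003 to 7.402. Both were lower in the transgenic arrays without overlap, opposite in direction to Xist, and neither passed the threshold. Eif2s3y differed by -0.412 (limma adjusted p = 0.273) and Kdm5d by -0.209 (limma adjusted p = 0.569). The transgenic arrays carried Xist together with Y-linked transcripts, against the label of male mice.

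Among the measured oxidase genes Cybb differed most between the groups. Its signal was 2.71-fold lower in the transgenic arrays, whereas Cyba was 1.18-fold, Ncf4 1.22-fold and Rac2 1.05-fold lower. None of the 4 genes passed limma's adjusted p of 0.05, where 0.0466% of all probe sets did (21 of 45037), and 1 of 4, Cybb, had an unadjusted p under 0.05, as did 13.7% of all probe sets (6153 of 45037). Cybb, Cyba and Ncf4 were lower in the transgenic arrays with no overlap between the groups, and Rac2 overlapped. Over all probe sets 31.4% were lower without overlap and 17.7% higher. Among 12024 genes whose representative lay above the 40th percentile of mean signal these shares were 37.9% and 15.2%, and 18.3% had an unadjusted p under 0.05. The median change of the 4 members was -0.26, against -0.11 over those 12024 genes. It was -0.15 without transgenic mouse 1 and -0.12 after quantile normalization.

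Cybb encodes the catalytic chain of the oxidase, also called NOX2, which carries the haem groups and the NADPH binding site. Its brightest probe set (1436778_PM_at) was at 9.58 and 9.57 in wild type mice 1 and 2 and at 8.02 and 8.25 in transgenic mice 1 and 2. Both transgenic values lay more than 1 log2 unit below both wild type values. The log2 change was -1.44 (SE 0.12, limma adjusted p = 0.0810), the 19th lowest among 17097 genes. Wild type arrays averaged 9.57 ± 0.01 and transgenic arrays 8.14 ± 0.17 (SD, n = 2 each).

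The other Cybb probe sets were lower too, by different amounts. Probe set 1436779_PM_at was at 8.88 and 9.05 in the wild type arrays and at 7.45 and 7.09 in the transgenic arrays, a log2 change of -1.70 (SE 0.16, limma adjusted p = 0.0935). The dimmest, 1422978_PM_at, was at 5.83 and 5.78 against 5.35 and 5.49, a log2 change of -0.39 (SE 0.11, limma adjusted p = 0.266). In each of the 3 probe sets the groups did not overlap. As the mean of the 3 probe sets Cybb differed by -1.18 (limma adjusted p = 0.0543).

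Cyba encodes the small membrane partner that stabilises the catalytic chain. Its probe set (1454268_PM_a_at) was at 10.53 and 10.52 in the wild type arrays and at 10.17 and 10.41 in the transgenic arrays. The groups did not overlap, but transgenic mouse 2 lay close to the wild type pair. The log2 change was -0.23 (SE 0.12, limma adjusted p = 0.476).

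Ncf4 encodes a cytosolic subunit that binds phosphoinositides of the phagosome membrane. Its probe set (1418465_PM_at) was at 8.94 and 9.14 in the wild type arrays and at 8.64 and 8.86 in the transgenic arrays. The gap between the groups was smaller than the difference between the mice of either group. The log2 change was -0.29 (SE 0.14, limma adjusted p = 0.433).

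Rac2 encodes the GTPase of blood cells that switches the assembled oxidase on. Its brighter probe set (1417620_PM_at) was at 10.90 and 11.02 in the wild type arrays and at 10.77 and 11.00 in the transgenic arrays, with overlapping groups (log2 change -0.08, SE 0.13, limma adjusted p = 0.815). That sign turned after quantile normalization, to 0.055, and without transgenic mouse 1, to 0.042. The dimmer probe set (1440208_PM_at) gave another picture. It was at 7.69 and 7.75 in the wild type arrays and at 6.90 and 6.68 in the transgenic arrays, lower without overlap (log2 change -0.93, SE 0.12, limma adjusted p = 0.121). The probe sets of Rac2 therefore disagreed, and their mean differed by -0.50 (limma adjusted p = 0.165).

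**Figure D1:**
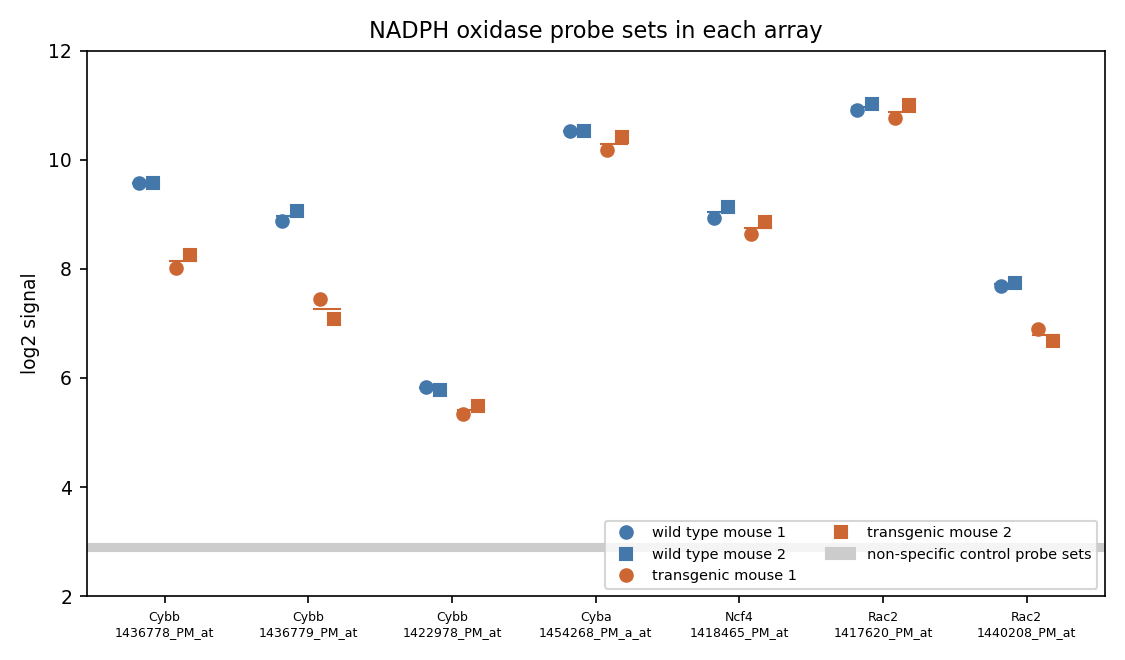
Log2 signal (y axis) of the 7 probe sets of Cybb, Cyba, Ncf4 and Rac2 (x axis) in each of the 4 arrays, with short lines at the group means and a grey band at the range of the non-specific control probe sets. For the brightest Cybb probe set the transgenic mice lie at 8.02 and 8.25, below the wild type mice at 9.58 and 9.57, whereas the brighter Rac2 probe set overlaps.

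The call of Cybb depended on scaling and on single arrays. The brightest probe set passed limma after quantile normalization (log2 change -1.29, adjusted p = 0.0139) and after median centring (-1.38, adjusted p = 0.0140). Without transgenic mouse 1 it differed by -1.32 (adjusted p = 0.00605) and without transgenic mouse 2 by -1.56 (adjusted p = 0.00158). Without wild type mouse 1 or 2 it differed by -1.43 and -1.44, but limma then called no probe set of any gene (adjusted p = 1.00 for each, with 1631 and 1576 probe sets at an unadjusted p under 0.05). The mouse number as a block gave an adjusted p of 0.172. Probe set 1436779_PM_at passed after median centring (-1.65, limma adjusted p = 0.0260) but not after quantile normalization (-1.52, limma adjusted p = 0.0555). Probe set 1422978_PM_at passed after neither (limma adjusted p = 0.189 and 0.314). Without transgenic mouse 2, Cyba differed by -0.35, Ncf4 by -0.40 and the brighter Rac2 probe set by -0.19. The dimmer Rac2 probe set differed by -0.82 there and by -1.04 without transgenic mouse 1. Both sets of calls were wide: 19110 of all probe sets passed in the fit without transgenic mouse 2, and 4140 in the fit without transgenic mouse 1. Both fits took the spread from the 2 wild type arrays alone and assumed that the lone transgenic array varied like them. The transgenic arrays varied more. Over all probe sets the SD of the difference between the arrays of a group was 0.32 for transgenic and 0.12 for wild type mice. The adjusted p of both fits makes no allowance for that. Without transgenic mouse 1, Cyba and Ncf4 differed by -0.11 and -0.18, and after quantile normalization by -0.11 and -0.13.

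**Figure D2:**
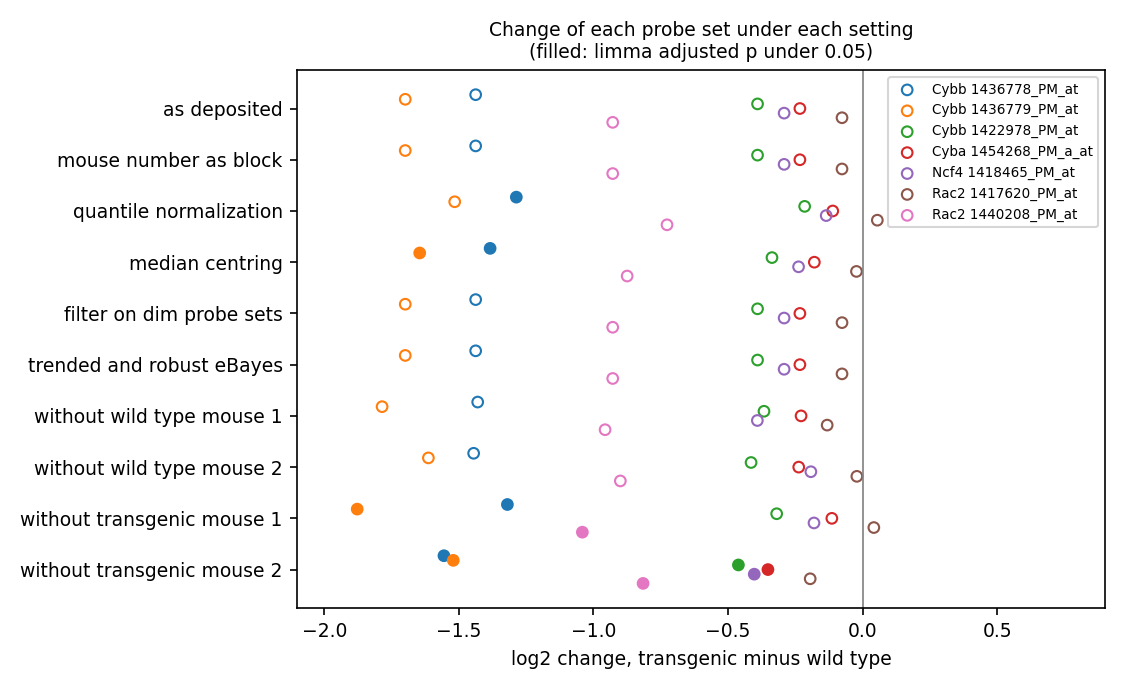
Log2 change (x axis, transgenic minus wild type) of the 7 probe sets under each of 10 settings (y axis), filled where limma's adjusted p was under 0.05. The brightest Cybb probe set stays between -1.56 and -1.29 throughout, while the brighter Rac2 probe set lies between -0.19 and 0.06.

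Set against each other within an array on their representative probe sets, the subunits changed unequally. The difference Cybb minus Cyba was 1.20 lower in the transgenic than in the wild type arrays, Cybb minus Ncf4 1.15 lower and Cybb minus Rac2 1.36 lower, each without overlap between the groups. Cyba minus Rac2 shifted by -0.16 and Ncf4 minus Rac2 by -0.22, also without overlap, and Cyba minus Ncf4 by 0.06, with overlapping groups. These differences do not depend on a scaling that adds a constant to an array, and they were not tested. They do depend on the probe set chosen. The dimmer Rac2 probe set changed by -0.93 and the other Cybb probe sets by -1.70 and -0.39, so the order of Cybb and Rac2 was not fixed. Cyba (-0.23) and Ncf4 (-0.29) changed less than that Rac2 probe set, so their order against Rac2 was not fixed either. The dimmest Cybb probe set (-0.39) lay close to Cyba and Ncf4.

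Cell type markers moved with the groups in the same arrays. Their counts without overlap stand beside 37.9% lower and 15.2% higher over all genes above the signal filter. Every one of the 19 measured markers of resting follicular B cells was lower without overlap (median -0.95, none past the threshold), with Blk at -1.31, Btk at -1.07 and Fcer2a at -1.02. Their summed linear signal was 24020 and 24798 in the wild type arrays and 12264 and 13856 in the transgenic arrays. The median change of the list was -0.84 after quantile normalization. Relative to the median of that list within each array, Cybb was lower by 0.44, and Cyba, Ncf4 and Rac2 were higher by 0.77, 0.71 and 0.92. This and the other values relative to a list rest on the representative probe sets. Neutrophil genes moved the other way: 12 of 13 were higher without overlap and 2 passed the threshold, Chil3 (3.83, limma adjusted p = 0.0219) and Ngp (2.77, limma adjusted p = 0.0219), with S100a9 at 2.53. Relative to the median of the neutrophil list Cybb differed by -2.60, Cyba by -1.39, Ncf4 by -1.45 and Rac2 by -1.24. The list's median change was 1.09, and their summed signal was 523 and 520.1 in the wild type arrays and 1805 and 2477 in the transgenic arrays. T cell genes were higher without overlap for 11 of 12 (median 0.37), with Cd8a at 1.14, Cd8b1 at 0.74 and Cd4 at -0.79 (-0.43 as the mean of its probe sets). Relative to that median Cybb differed by -1.67, Cyba by -0.46, Ncf4 by -0.52 and Rac2 by -0.31. The summed signal of the T cell list was 12428 and 12653 in the wild type arrays and 15490 and 17541 in the transgenic arrays. Its median change was 0.53 after quantile normalization. The monocyte, macrophage and dendritic cell list had 12 measured genes, of which 9 were higher and 1 lower without overlap (median 0.18), with Ccr2 at 1.19 (0.75 as the mean of its probe sets), Cd14 at 0.97 and Clec7a at 0.47. That median was 0.37 after quantile normalization and 0.11 when transgenic mouse 2 was left out. Relative to it Cybb differed by -1.47, Cyba by -0.27, Ncf4 by -0.33 and Rac2 by -0.11, the last with overlapping groups. The summed signal of this list was 1427 and 1408 in the wild type arrays and 1835 and 2182 in the transgenic arrays. The part of these cell types in the oxidase values was not tested, and in bulk RNA fewer cells of a type and less RNA per cell cannot be told apart. For the remaining lists the medians were 0.29 for 10 natural killer cell genes (Eomes 1.17, Il2rb 0.60, Gzma -0.96), 0.15 for 5 eosinophil genes (Il5ra -0.87, Prg2 0.40, Epx 0.27) and 0.17 for 6 erythroid and platelet genes (Hba-a1 0.34, Alas2 0.28, Ppbp 0.26). None of these 3 lists had a gene past the threshold. Leaving out transgenic mouse 1 gave a natural killer cell median of 0.50, and leaving out transgenic mouse 2 one of 0.08. Under the filter on dim probe sets Il5ra alone remained of the eosinophil list, at -0.87. Prg2 and Epx averaged 3.48 and 3.16 in the wild type arrays, near the control probe sets. Il2rb differed by 0.08 as the mean of its probe sets.

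Cybb lies on the X chromosome, and Xist differed by 3.27 in the same arrays. The 346 X-linked genes above the signal filter had a median change of -0.07, against -0.11 over the other 11678. Of the X-linked genes 29.8% were lower without overlap, against 38.2% of the others. Counting Cybb, 2 X-linked genes differed by as much as Cybb or more in the lower direction. The part of the Xist difference in the Cybb result was not tested.

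Of 3 measured partners none passed the threshold, and their median change was -0.17 (-0.0043 after quantile normalization and 0.0013 without transgenic mouse 1). Cybc1, a chaperone needed for the catalytic chain, was at 8.53 and 8.64 against 8.33 and 8.50 (log2 change -0.17, SE 0.12, limma adjusted p = 0.556). Its dimmer probe set differed by 0.10. Rac1, the widely expressed relative of Rac2, was at 10.38 and 10.36 in the wild type arrays and at 9.86 and 10.45 in the transgenic arrays (log2 change -0.22, SE 0.21, limma adjusted p = 0.681). On that probe set only transgenic mouse 1 was low, and without it Rac1 differed by 0.08. Another bright Rac1 probe set was at 9.80 and 9.86 against 9.32 and 9.41, lower without overlap (log2 change -0.46, SE 0.10, limma adjusted p = 0.212). Rap1a, a small GTPase that copurifies with the membrane core, differed by -0.11 (SE 0.12, limma adjusted p = 0.709). Of the other NADPH oxidase family, 5 of 9 listed genes were measured, with none past the threshold and a median change of 0.0011 that turned to -0.016 after quantile normalization. Noxo1 differed by -0.23, Duoxa1 by 0.15, Duoxa2 by 0.10 and Duox1 by -0.07, and Duoxa2 and Duox1 lay near the control probe sets at 3.01 and 3.41 in the wild type arrays.

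Signalling genes upstream of the oxidase were mostly lower, without a call. Of 14 measured kinases, exchange factors and inhibitors 8 were lower and 2 higher without overlap (median -0.29, and -0.12 after quantile normalization or without transgenic mouse 1). Among all 12024 genes above the signal filter 37.9% were lower and 15.2% higher without overlap, with a median of -0.11. Vav2, an exchange factor for Rac GTPases, was at 7.31 and 7.24 against 6.22 and 6.49 (log2 change -0.92, SE 0.13, limma adjusted p = 0.136). Its other probe set differed by -0.24 (limma adjusted p = 0.523), and the mean of both by -0.58. Syk, a kinase of B cell and Fc receptors, differed by -0.69 (limma adjusted p = 0.137). Prkcd, a protein kinase C that phosphorylates the cytosolic subunits, differed by -0.49, and Pik3cg, a phosphoinositide kinase, by -0.50. After quantile normalization the brighter Vav2 probe set passed (-0.70, limma adjusted p = 0.0426).

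Of 9 measured receptors that trigger the oxidative burst 4 were higher and none lower without overlap, 5 overlapped, and none passed the threshold. Their median change was 0.18, which was 0.10 without transgenic mouse 1, 0.12 without wild type mouse 2, 0.13 without transgenic mouse 2, 0.43 under the filter on dim probe sets and 0.38 with the probe sets of each gene averaged. Fpr2, a formyl peptide receptor of neutrophils and monocytes, was at 5.54 and 5.55 against 6.54 and 6.57 (log2 change 1.01, SE 0.10, limma adjusted p = 0.0935), and it passed after quantile normalization (1.19, limma adjusted p = 0.0313). Clec7a, the beta-glucan receptor Dectin, differed by 0.47 and Itgb2, the shared chain of the leukocyte integrins, by 0.43. Fcgr3, an IgG receptor, was at 5.54 and 5.58 in the wild type arrays and at 5.51 and 6.58 in the transgenic arrays, so its change of 0.49 came from transgenic mouse 2 alone. The neutrophil list was higher in the same arrays, with a median of 1.09. Above the signal filter 15.2% of all genes were higher and 37.9% lower without overlap.

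Transcription factors known from oxidase promoters were lower in most cases. Of 9 measured factors 7 were lower and 1 higher without overlap (median -0.50), and none passed the threshold. Irf8, an interferon regulatory factor of B and myeloid cells that acts on Cybb, was at 10.49 and 10.61 in the wild type arrays and at 9.21 and 9.25 in the transgenic arrays (log2 change -1.32, SE 0.10, limma adjusted p = 0.0796). Spi1, which encodes PU.1, a master factor of myeloid and B cells, was at 7.83 and 8.03 against 6.94 and 6.93 (log2 change -0.996, SE 0.114, limma adjusted p = 0.106). Spib, its relative in B cells, differed by -1.40, and Crebbp, a co-activator, by -0.80. After quantile normalization Irf8 (-1.18, limma adjusted p = 0.0268), Spib (-1.25, adjusted p = 0.0338) and Crebbp (-0.65, adjusted p = 0.0447) passed, and after median centring Irf8, Spib and Spi1 did. The list's median was -0.36 after quantile normalization and -0.28 without transgenic mouse 1. The list of resting B cell genes was lower in the same arrays, with a median of -0.95. Above the signal filter 37.9% of all genes were lower and 15.2% higher without overlap.

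The promoter windows of Cybb and Cyba are shown because these genes encode the 2 chains of the membrane core and differed by unequal amounts. Each window runs from 250 bases before to 50 bases after the annotated start (RefSeq, GRCm38.p6, minus strand), Cybb at chrX:9469275-9469574 and Cyba at chr8:122432891-122433190. Capitals mark matches to GAGGAA, letters of the PU.1 motif, and to CCAAT, both searched on both strands.
Cybb: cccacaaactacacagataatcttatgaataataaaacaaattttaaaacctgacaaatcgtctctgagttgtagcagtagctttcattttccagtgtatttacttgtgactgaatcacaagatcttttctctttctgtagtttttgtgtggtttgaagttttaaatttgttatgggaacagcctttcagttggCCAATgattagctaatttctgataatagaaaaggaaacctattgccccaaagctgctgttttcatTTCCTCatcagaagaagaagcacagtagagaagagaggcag
Cyba: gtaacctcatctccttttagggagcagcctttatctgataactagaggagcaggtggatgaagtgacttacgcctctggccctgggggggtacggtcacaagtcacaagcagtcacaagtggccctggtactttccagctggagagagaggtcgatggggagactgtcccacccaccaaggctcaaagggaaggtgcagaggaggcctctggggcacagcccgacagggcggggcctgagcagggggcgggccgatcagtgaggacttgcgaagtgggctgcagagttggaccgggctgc

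The Cybb window held CCAAT, beginning 56 bases before the start, and the reverse complement of GAGGAA, beginning at base 10 of the transcript. The Cyba window held neither. Of 32851 windows of the same length 28.3% held GAGGAA on either strand and 37.4% held CCAAT. These matches are letters only, and no binding was measured.

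**Figure D3:**
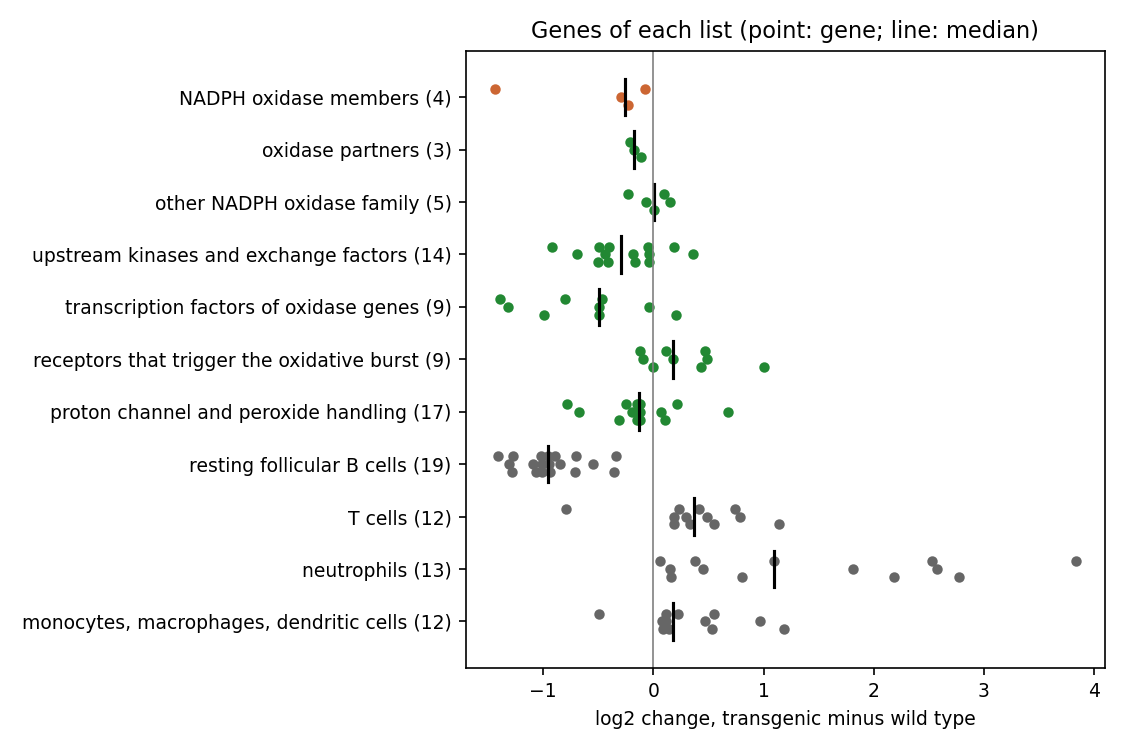
Log2 change (x axis, transgenic minus wild type) of every measured gene, by list (y axis, number of genes in brackets), with a line at each median. Each gene is shown by its representative probe set. Among the oxidase members Cybb lies apart at -1.44, just below the range of the resting follicular B cell list (-1.41 to -0.34), while the other 3 lie between -0.29 and -0.08.

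Genes that handle superoxide and peroxide, and the proton channel that offsets the charge moved by the oxidase, differed in both directions. Of 17 measured genes 9 were lower and 3 higher without overlap (median -0.13, or 0.0074 after quantile normalization and -0.015 with transgenic mouse 1 left out), and none passed the threshold. Hvcn1, that proton channel, abundant in B cells, was at 10.43 and 10.46 in the wild type arrays and at 9.51 and 9.80 in the transgenic arrays (log2 change -0.79, SE 0.13, limma adjusted p = 0.159). Prdx4, a peroxidase of the endoplasmic reticulum, differed by -0.67 and Cat, catalase, by -0.31. Hmox1, haem oxygenase, was higher by 0.67 (SE 0.14, limma adjusted p = 0.200). After quantile normalization Hvcn1 (-0.67, limma adjusted p = 0.0376) and Hmox1 (0.81, limma adjusted p = 0.0300) passed. For the counts without overlap, the shares over all genes above the signal filter were 37.9% lower and 15.2% higher.

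The genes nearest to each member in pattern were found by the Euclidean distance between log2 values centred on their own mean over the 4 arrays. Nearest to Cybb were Fam167a (distance 0.0386, log2 change -1.43), Dnah8 (distance 0.0947, log2 change -1.37) and Myl4 (distance 0.102, log2 change -1.34). Nearest to Cyba were Esd, Kansl2 and Heatr5b (distances 0.0104 to 0.0111). Nearest to Ncf4 were Esrp2, Ppif and Otulin (0.0302 to 0.0429), and nearest to Rac2 were Tpm1, Zar1 and Clk4 (0.00395 to 0.0150). With 4 arrays many genes share a pattern, so a small distance is a description only.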

How the data were processed

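RNA of B cells from the lymph nodes of 4 mice was measured on Affymetrix arrays, labelled with a 3' IVT kit per the labels' protocols. The deposited table holds log2 signals of 45141 probe sets, made by the authors. Background correction, normalization and probe summary are not given in the sources used here, and the values themselves gave the log2 scale. The platform annotation named 1 gene for 28898 probe sets, several for 551 and none for 15588. By Entrez ID 28689 of the 28898 matched RefSeq genes of GRCm38.p6, with no symbol changed.

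Groups came from the sample titles. After 104 control probe sets were left out, the contrast of transgenic minus wild type was fitted across all genes by limma 3.58.1 (R 4.3.3) with a moderated two-sided test, Benjamini-Hochberg adjustment over 45037 probe sets and a threshold of 0.05, on 2 residual and 2.69 prior degrees of freedom. The fit was tested on simulated data with equal spread in both groups and changes larger than that of any member probe set. The real transgenic arrays varied more than the wild type arrays, and that case was not simulated. The number of arrays limits the precision: exact permutation of 2 against 2 labels gives no two-sided p below 0.333. Nothing in the labels pairs mice across groups, and the deviations of arrays with the same number were uncorrelated (0.01).

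Members and lists were chosen with earlier results of these data known, and some genes of the lists are not reported here. Named genes were the members with all probe sets, all partners, the 4 genes of smallest p in each other pathway list, the 3 of smallest p in each marker list, and the 3 genes nearest to each member. Alternatives were a replicate block, quantile normalization, median centring, a trended and robust eBayes, a filter at the 40th percentile of mean signal (4.10), averaging the probe sets of each gene, and leaving out each array. Figures were drawn with matplotlib 3.10.9.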

Additional observations from a re-analysis of the deposited data

How the results depend on the processing

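As deposited, 21 probe sets passed (17 higher, 4 lower) and no member gene. Quantile normalization gave 870 probe sets (402 higher, 468 lower), 1 member gene and a member median of -0.12. Median centring gave 614 probe sets (189 higher, 425 lower) and 1 member gene, the filter on dim probe sets 51 probe sets, and averaging the probe sets of each gene a member median of -0.40. The replicate block gave 15 probe sets and 0 member genes, and changed no other call among the named genes. Leaving out each array in turn gave 0 to 19110 probe sets and 0 to 3 member genes, and limma passed 0 probe sets without either wild type array (unadjusted p under 0.05 for 1631 and 1576). Chil3 and Ngp, the named genes of the marker lists that passed, did not pass without either wild type array. Of 47 named genes of the lists, quantile normalization brought 18 past the threshold, median centring 14 and the filter 1, Cybb among the first 2 sets. Signs turned for Rap1a (0.074) and Rac2 (0.055) after quantile normalization, and for Rac1 (0.0040) as the mean of its probe sets. That mean includes a dim Rac1 probe set at 3.01 and 2.99 in the wild type arrays and at 4.49 and 2.89 in the transgenic arrays (log2 change 0.69). The bright Rac1 probe sets differed by -0.22 and -0.46. Over the fits that left out 1 array, signs turned for Rac1 (-0.51 to 0.078), Rap1a (-0.22 to 0.0013), Duox1 (-0.17 to 0.032) and Rac2 (-0.19 to 0.042), whose values above 0 came without transgenic mouse 1. Duox1 also turned without wild type mouse 2 (0.00066), and Fcgr3 ran from -0.049 without transgenic mouse 2 to 1.02 without transgenic mouse 1. The cause was not tested for any of these. Under the filter 27022 probe sets were tested. Values near the control probe sets, at 2.83 to 2.95, understate a change.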

Other observations

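Ncf4 and Rac2 lie on chromosome 15 with 10 protein-coding genes between them in RefSeq's GRCm38.p6. Of these 9 were measured, with a median log2 change of 0.01 and a range of -0.35 to 0.60. Without overlap between the groups 1 was lower and 3 were higher, against 31.4% lower and 17.7% higher over all probe sets. The highest on its brightest probe set was Il2rb, a chain of the interleukin-2 receptor, named after its values were seen. Its other probe sets were lower (-0.20 and -0.16), and averaging its 3 probe sets gave 0.08.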
